A study of Parasteatoda tepidariorum with 75 samples.

Results

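The mitochondrial respiratory chain genes of the spider *Parasteatoda tepidariorum* are described here as 76 of the 27990 gene models in the deposited count table. They are the models whose written description contains NADH dehydrogenase [ubiquinone], succinate dehydrogenase, cytochrome b-c1, cytochrome c oxidase or ATP synthase, so no measured value chose them. They fell into 27 subunits and 1 assembly factor of complex I, 4 subunits and 1 assembly factor of complex II, 5 subunits of complex III, 11 subunits and 9 assembly or biogenesis factors of complex IV, and 14 subunits, 2 subunit s-like models and 2 assembly factors of ATP synthase. Symbols such as NDUFB11 or COX5B stand for the vertebrate proteins that the descriptions name.

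Mitochondria pass electrons from food molecules to oxygen through a chain of protein complexes in their inner membrane. Complex I takes electrons from NADH and complex II takes them from succinate, both hand them to ubiquinone, complex III moves them on to cytochrome c, and complex IV, cytochrome c oxidase, reduces oxygen to water. Complexes I, III and IV pump protons as they do so, and ATP synthase lets the protons flow back to make ATP, while an early animal embryo begins with mitochondria and mRNAs laid down by the mother in the egg.

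RNA-seq was done on poly(A) RNA of pools of 50 to 120 sibling embryos, taken from egg sacs that a female laid before and after injection of double-stranded RNA. In this parental RNA interference (pRNAi) the dsRNA acts on the embryos of the injected mother, and the study asked which genes respond when Hedgehog signalling (*Pt-hh*, the ligand, and *Pt-ptc*, its receptor) or the segmentation gene *Pt-msx1* is targeted. dsRNA of *gfp*, a jellyfish gene that the spider lacks, was the control. The 68 libraries came from 34 egg sacs of 13 females, all mated laboratory stock animals.

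The *Pt-hh* pRNAi egg sacs were laid 16 to 22 days after the first injection by 2 females, with 4 libraries at early stage 3 and 4 at late stage 5, against 2 untreated libraries at each stage from egg sacs of the same females. *Pt-ptc* pRNAi egg sacs (days 14 to 19, 3 females) gave 6 libraries per stage against 3 untreated ones, and *gfp* pRNAi egg sacs of females 1 to 3 (days 13 to 22) also gave 6 per stage against 3. *Pt-msx1* pRNAi egg sacs (days 14 to 24, 3 females) gave 3 libraries at late stage 5 and 3 at early stage 6, against 3 untreated ones, and *gfp* females 4 and 5 (days 19 and 20) gave 2 against 2 at these stages. Untreated egg sacs were laid 1 to 3 days before the first injection. At early stage 3 the embryo first shows its axis, at late stage 5 it is a germ disc with regional gene expression, and at early stage 6 the disc turns into a germ band. Egg sacs of 1 female are not separate animals, so the p-values below also rest on repeated sampling of the same mothers.

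Total counts were 5961730 to 16400327 per library (median 9854679). The 10 most counted models took 10.9% to 24.0% of the counts in libraries of the *Pt-hh* females, against 2.90% to 7.28% in those of all other females. Of 6 germ disc markers, *Pt-otd* (45.2 to 144 CPM at late stage 5, against 1.82 to 11.9 CPM at early stage 3), *Pt-msx1* (100 to 256 CPM against 1.72 to 44.9 CPM), *Pt-hh* and *Pt-ptc* were higher in every untreated late stage 5 library than in any early stage 3 library of the 8 females with both stages, while *Pt-opa* and *Pt-lab-A* overlapped between the stages. CPM is a count divided by the total of its library and scaled to a common size, here with TMM scaling, which adjusts for differences in composition between libraries. Among the targets, *Pt-hh* stood at 2.30 to 3.32 CPM in the 4 late stage 5 *Pt-hh* pRNAi libraries, against 33.6 to 70.8 CPM in the 2 untreated ones. *Pt-ptc* was at 41.7 to 75.4 CPM in early stage 3 *Pt-ptc* pRNAi libraries, against 72.5 to 166 CPM in untreated ones, but at 502 to 704 CPM at late stage 5, against 409 to 554 CPM. The paper proposes that this knockdown raises Hedgehog signalling and with it *Pt-ptc* transcription. In the same late stage 5 pRNAi libraries *Pt-msx1* was at 1.07 to 2.71 CPM, against 100 to 147 CPM in untreated ones. *Pt-opa* was at 417 to 561 CPM, against 213 to 250 CPM, and *Pt-lab-A* at 273 to 448 CPM, against 144 to 153 CPM, while *Pt-otd* overlapped. *Pt-msx1* was at 98.1 to 201 CPM in early stage 6 *Pt-msx1* pRNAi libraries, against 125 to 166 CPM in untreated ones, so its count did not check the labels of these libraries. The library labelled *Pt-msx1* female 1, early stage 6, pRNAi and the one labelled *gfp* female 5, early stage 6, pRNAi had the same count for every model (total 10105237), and which female they belong to was not settled.

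Nearly all members were well expressed by the authors' length-scaled counts. RPKM is the authors' count scaled to a length and a library total that are not named. The median level of the members over the 26 untreated libraries was 46.1 RPKM. For the 23968 models with any count the median was 0.664 RPKM, and 73 of the 76 members lay above it. Complex IV subunits had a median of 192 RPKM, ATP synthase subunits 103 RPKM, complex III subunits 84.0 RPKM, complex I subunits 39.7 RPKM and complex II subunits 36.2 RPKM. Complex IV assembly factors, which build the enzyme and are not part of it, had a median of 19.5 RPKM.

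A cytochrome c oxidase subunit 3-like model, aug3.g20563, led the list with a mean of 3230 RPKM ± 2260 (SD, n = 26) and ranked 5 of all models. COX3 is encoded by mitochondrial DNA in animals, and the model lies on Scaffold3948:1-13430 (plus strand) of Ptep_1.0. COX6B1, a small subunit on the intermembrane side (aug3.g25343, 548 RPKM ± 231), and the beta subunit of ATP synthase, which carries the catalytic sites (aug3.g7080, 360 RPKM ± 132), came next, and their SDs leave the order of these 2 unresolved. At the other end were 3 models that share a gene identifier or a scaffold with a well counted copy. They were a COX6C-like model (aug3.g724), which had no count in any library, a COA7-like model (aug3.g4145, 0.230 RPKM ± 0.232) and a NDUFA9-like model (aug3.g22034, 0.299 RPKM ± 0.429).

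The 76 models carry 72 different sets of identifiers and lie on 72 scaffolds, so several models may be pieces or copies of 1 gene, and reads that matched both copies equally were removed by the authors' uniqueness filter. Such pairs were found for COX6A1 (aug3.g14813 and aug3.g21118), NDUFA9 (aug3.g2450 and aug3.g22034), COX6C (aug3.g7599 and aug3.g724) and subunit b of ATP synthase (aug3.g4588 and aug3.g17275), and their separate values are uncertain. One pair of different genes lay close together. The alpha subunit of ATP synthase (aug3.g3850, Scaffold506:229916-260274, minus strand) and NDUFA6, an accessory subunit of complex I (aug3.g3851, Scaffold506:260756-273169, plus strand), point away from each other with 481 bases between them.

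Most members of the respiratory chain were higher at late stage 5 than at early stage 3. In the untreated egg sacs of 8 females, 52 of the 74 members tested rose and 4 fell, with a median log2 fold change of 0.77 for the members and of -0.07 for all 14721 models tested. Much of the transcriptome moved between these stages: 65.8% of all models were called, 31.9% higher and 33.9% lower, against 70.3% of members called higher. The other 2 members, aug3.g724 and aug3.g22034, did not reach 1 CPM in any of these libraries. Of the 74 tested, 24 had every late stage 5 library above every early stage 3 library, 1 had the reverse and 49 overlapped. Among all models 18.5% lay apart and higher, and 19.6% apart and lower. The test was edgeR's quasi-likelihood F test with the egg sac as a block, and a model was called at a Benjamini-Hochberg adjusted p under 0.01 over all models. Summed over the 60 subunits other than the subunit 3-like model, late stage 5 libraries had 4919 to 8163 CPM (median 6784), against 3079 to 4126 CPM (median 3550) at early stage 3. The sum was higher in 8 of 8 egg sacs, by a median of 1.85-fold, and the 2 stages did not overlap. It leaves out the member with the highest RPKM, the subunit 3-like model, which was not called in these egg sacs. For complex II alone the median ratio was 0.946, and its sum was higher in 3 of 8 egg sacs. In pools of whole embryos, more cells of a type and more RNA per cell cannot be told apart.

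**Figure D1:**
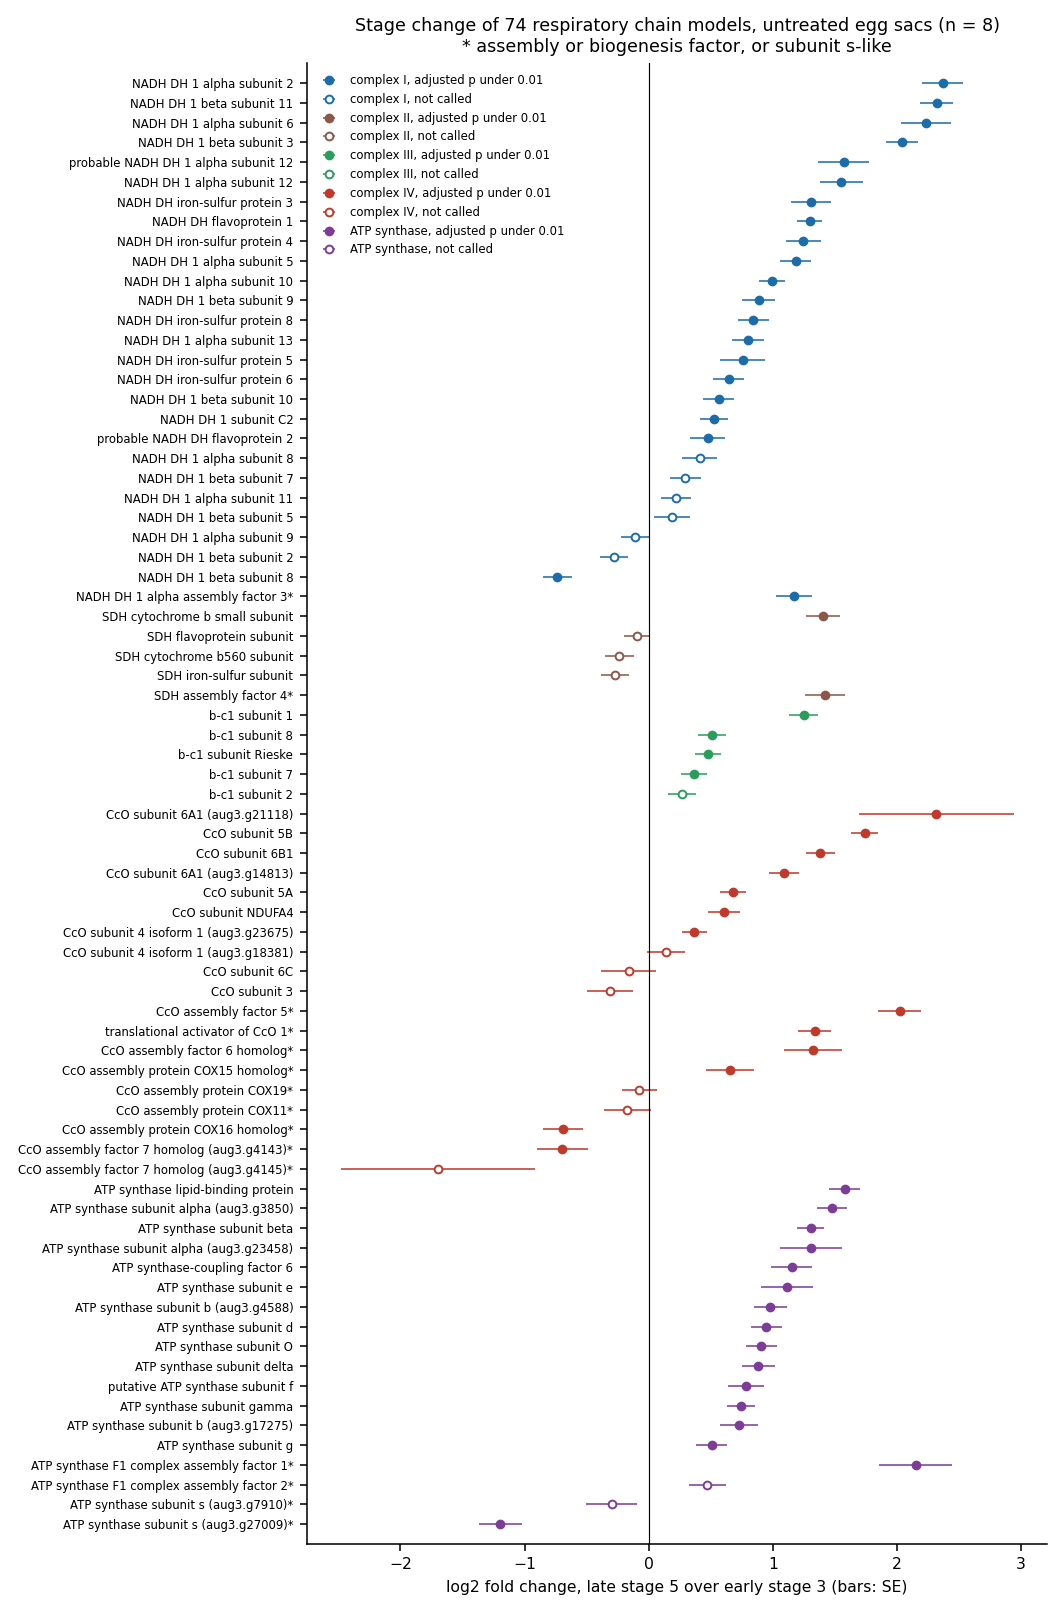
Log2 fold change of late stage 5 over early stage 3 for the 74 respiratory chain models tested in untreated egg sacs of 8 females, grouped by complex (points, with the standard error as bars; filled points have an adjusted p under 0.01). Of these, 52 filled points lie right of 0 and 4 left of it, and all 14 ATP synthase subunits are filled and right of 0.

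Complex I gained in most of its subunits. Of 26 subunits tested, 19 rose, 1 fell and 6 did not pass the test (median log2 fold change 0.82). Summed, they had 963 to 1415 CPM (median 1224) at late stage 5, against 665 to 774 CPM (median 723) at early stage 3, so that every late stage 5 library was above every early stage 3 library. The ratio was 1.65 (median of 8 egg sacs).

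NDUFV1, the subunit that binds NADH (aug3.g11683), had a lowest, median and highest level of 68.9, 79.3 and 116 CPM at late stage 5, against 23.8, 32.5 and 51.1 CPM at early stage 3. The stages did not overlap, and the log2 fold change was 1.30 ± 0.10 (SE, adjusted p = 3.84e-08). The smallest adjusted p of all members was that of NDUFB11, an accessory subunit of the membrane arm (aug3.g16168), with 44.1, 56 and 69 CPM at late stage 5, against 9.32, 11 and 13.7 CPM at early stage 3. Its lowest late stage 5 library was above all early stage 3 libraries by a wide margin, and it rose by 2.32 ± 0.13 on the log2 scale (adjusted p = 1.06e-09). NDUFA2, an accessory subunit of the matrix arm (aug3.g25930), had 28.4, 40 and 73.5 CPM at late stage 5, against 5.06, 9.04 and 12.4 CPM at early stage 3. It had the highest fold change of the members, 2.37 ± 0.17, and NDUFB3, another membrane arm subunit (aug3.g14397), rose by 2.04 ± 0.13. NDUFA6 rose by 2.23 ± 0.20, and its neighbour, the alpha subunit of ATP synthase, rose as well.

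NDUFB8, a membrane arm subunit (aug3.g19426), went the other way. It had 20.4, 36 and 50.2 CPM at late stage 5, against 35.6, 59.1 and 107 CPM at early stage 3. The ranges overlapped, but it was lower in 8 of 8 egg sacs (log2 fold change -0.73 ± 0.12, adjusted p = 6.37e-05). Among the core subunits of complex I that the descriptions name in other words, and that are therefore not among the 76, the 49 kDa subunit near the ubiquinone site (aug3.g7546) rose by 1.20 ± 0.15, while a second model with its identifier (aug3.g19851) was not called (0.91, adjusted p = 0.031). The 75 kDa subunit, which holds iron-sulfur clusters (aug3.g24953), fell (-0.76 ± 0.11, adjusted p = 2.08e-05). The core subunits of complex I thus did not all move in 1 direction.

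In complex II, which is also an enzyme of the tricarboxylic acid cycle, 1 of 4 subunits rose and 3 did not pass the test. The sum was 226 to 330 CPM (median 271) at late stage 5, against 195 to 341 CPM (median 278) at early stage 3, and was higher in 3 of 8 egg sacs. SDHA, the flavoprotein that oxidizes succinate (aug3.g18664), had 108, 125 and 158 CPM at late stage 5, against 101, 137 and 183 CPM at early stage 3 (log2 fold change -0.09 ± 0.11, adjusted p = 0.44). SDHB, the iron-sulfur subunit (aug3.g11895), had 40.9, 53.1 and 62.2 CPM at late stage 5, against 48.9, 59.8 and 92.4 CPM at early stage 3. Both overlapped between the stages, and SDHB, lower in 7 of 8 egg sacs (-0.27 ± 0.12, adjusted p = 0.047), was called lower by DESeq2 (-0.35, adjusted p = 0.0059) and with library totals alone. SDHC, a membrane anchor (aug3.g9964), had a log2 fold change of -0.24 (adjusted p = 0.076). SDHD, the other membrane anchor (aug3.g5267), stood apart with 28.9, 40.6 and 50.1 CPM at late stage 5, against 12.1, 14.3 and 18 CPM at early stage 3, without overlap. It rose by 1.41 ± 0.14 (adjusted p = 3.55e-07), and SDHAF4, an assembly factor of complex II (aug3.g10343), rose by 1.42 ± 0.16.

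Complex III rose in 4 of its 5 named subunits, and its sum was 1.43-fold higher (median of 8 egg sacs) and higher in 8 of 8. The sums were 509 to 731 CPM (median 660) at late stage 5, against 313 to 546 CPM (median 440) at early stage 3, so the ranges overlapped. Core subunit 1 (aug3.g5769) had 115, 149 and 187 CPM at late stage 5, against 38, 64.8 and 85.9 CPM at early stage 3, with no overlap and a log2 fold change of 1.25 ± 0.12 (adjusted p = 2.86e-07). Core subunit 2, its partner in the complex (aug3.g9635), had 105, 161 and 206 CPM at late stage 5, against 105, 130 and 176 CPM at early stage 3. These ranges overlapped almost fully and the difference was not called (0.27 ± 0.12, adjusted p = 0.048). The Rieske subunit, which holds an iron-sulfur cluster (aug3.g26287), had 97.8, 126 and 152 CPM at late stage 5, against 68.5, 84.9 and 120 CPM at early stage 3. It overlapped between the stages but was higher in 8 of 8 egg sacs (0.48 ± 0.11, adjusted p = 0.0010), a call that was lost when libraries were scaled by their totals alone. Cytochrome c1, described in other words and so outside the 76 (aug3.g3846), had a log2 fold change of -0.13 (adjusted p = 0.28).

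Complex IV rose in 7 of 10 subunits tested, and 3 did not pass the test. Without the subunit 3-like model the sum was 953 to 1694 CPM (median 1345) at late stage 5, against 493 to 879 CPM (median 768) at early stage 3, again without overlap, and 1.80-fold higher (median of 8 egg sacs). COX5B, a nuclear-encoded subunit on the matrix side (aug3.g3085), had 109, 158 and 253 CPM at late stage 5, against 30.2, 50.9 and 60.4 CPM at early stage 3. It was higher in every late stage 5 library than in any early stage 3 library (1.74 ± 0.11, adjusted p = 2.94e-09). COX5A, a matrix side subunit (aug3.g26962), had 151, 252 and 364 CPM at late stage 5, against 102, 174 and 190 CPM at early stage 3 (0.68 ± 0.11, adjusted p = 4.89e-05), with overlap between egg sacs but a higher level at late stage 5 in each of the 8. In the lines that join both stages of 1 egg sac, the *Pt-hh* females had the lowest COX5A levels at both stages.

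**Figure D2:**
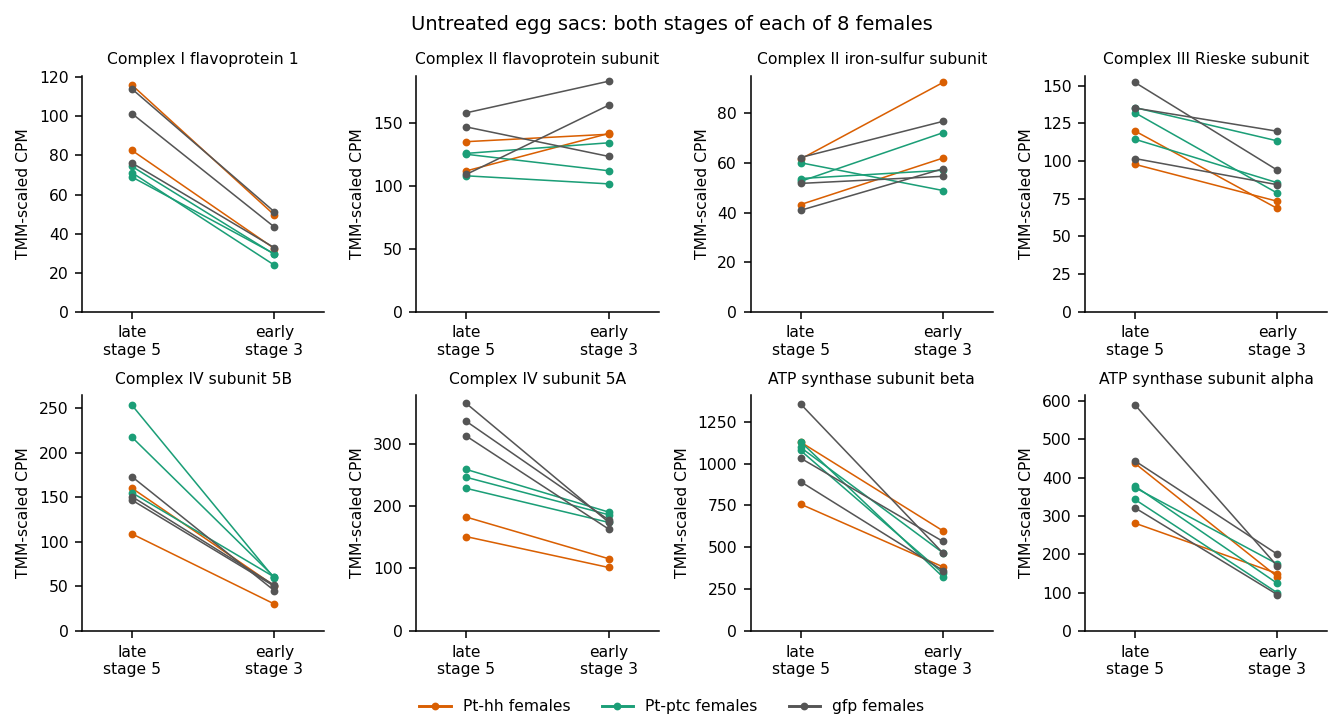
TMM-scaled CPM of 8 subunits in untreated egg sacs, with 1 line per egg sac joining late stage 5 (left) and early stage 3 (right), coloured by the dsRNA the female received later. All 8 lines of NDUFV1, COX5B and the alpha and beta subunits of ATP synthase run downward to the right, whereas those of both complex II subunits run in both directions.

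Of the 2 models of COX4, a subunit known in vertebrates for its part in regulating the enzyme, 1 was called. Model aug3.g23675 had 53.6, 65.6 and 80.5 CPM at late stage 5, against 34.8, 53.5 and 62.9 CPM at early stage 3 (0.37 ± 0.10, adjusted p = 0.0045). It lost its call when any of 4 females was left out. Model aug3.g18381 had 22.8, 34.2 and 54.5 CPM at late stage 5, against 26.1, 32.7 and 45.4 CPM at early stage 3 (0.14 ± 0.15, adjusted p = 0.41), so the ranges overlapped almost fully. For COX6A1, model aug3.g14813 rose by 1.09 ± 0.12, with 88.1, 157 and 221 CPM at late stage 5, against 58.5, 67.4 and 86.1 CPM at early stage 3. The second COX6A1 model, aug3.g21118, was called (2.32 ± 0.62, adjusted p = 0.0038) but rested on *Pt-hh* female 1, with 25.1 CPM at late stage 5 against 2.59 CPM at early stage 3, while the untreated libraries of the other 7 females had at most 0.356 CPM at these stages. Without that female it was below the minimum level for testing. The subunit 3-like model had 247, 2350 and 6170 CPM at late stage 5, against 176, 3360 and 9180 CPM at early stage 3, with full overlap and no call (-0.31 ± 0.18, adjusted p = 0.14).

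ATP synthase rose in all 14 of the subunits tested. Their sum was 2253 to 4397 CPM (median 3358) at late stage 5, against 1159 to 1789 CPM (median 1403) at early stage 3. This was the largest ratio of the 5 complexes, 2.28 (median of 8 egg sacs), and the stages did not overlap. The beta subunit (aug3.g7080) had 758, 1090 and 1360 CPM at late stage 5, against 322, 424 and 598 CPM at early stage 3 (1.31 ± 0.11, adjusted p = 8.60e-08). The alpha subunit, which alternates with beta in the catalytic ring (aug3.g3850), had 282, 376 and 591 CPM at late stage 5, against 94.9, 146 and 200 CPM at early stage 3 (1.47 ± 0.12, adjusted p = 5.83e-08). Neither overlapped between the stages. The lipid-binding protein, which forms the rotating ring in the membrane (aug3.g26162), had 338, 669 and 963 CPM at late stage 5, against 160, 228 and 311 CPM at early stage 3 (1.58 ± 0.12, adjusted p = 3.61e-08), also without overlap. The gamma subunit, the central stalk (aug3.g12566), had 126, 181 and 294 CPM at late stage 5, against 69, 108 and 179 CPM at early stage 3 (0.74 ± 0.11, adjusted p = 3.29e-05), with overlap between egg sacs. A second, weakly counted alpha-like model (aug3.g23458) rose by 1.30 ± 0.25.

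Of 13 assembly and biogenesis factors tested, 7 rose, 2 fell and 4 did not pass the test. ATPAF1, which in yeast and mammals helps to assemble the catalytic part of ATP synthase (aug3.g2278), had 15.3, 25.5 and 31 CPM at late stage 5, against 1.36, 5.82 and 14 CPM at early stage 3 (2.15 ± 0.30, adjusted p = 1.39e-05). Its late stage 5 libraries were all above its early stage 3 libraries. COX16, an assembly factor of complex IV (aug3.g7177), had 14.2, 26.9 and 50.0 CPM at late stage 5, against 24.2, 52 and 60.6 CPM at early stage 3, and was lower in 7 of 8 egg sacs (-0.69 ± 0.16, adjusted p = 0.0014). The call on COX16 was lost without the egg sac as a block (-0.69, adjusted p = 0.013) and without the *Pt-hh* females (-0.59, adjusted p = 0.011). COA7 (aug3.g4143) was lower in 6 of 8 (-0.70 ± 0.21, adjusted p = 0.0071), and this call was lost when any of 5 females was left out. Among the members called, the largest fall was that of an ATP synthase subunit s-like model (aug3.g27009), with 14.1, 24.0 and 33 CPM at late stage 5, against 40.6, 55.3 and 80.4 CPM at early stage 3, and no overlap (-1.19 ± 0.17, adjusted p = 2.02e-05). The description of aug3.g27009 names a subunit s-like protein, whose function was not tested here. Subunit s itself is named by the description of another model (aug3.g7910). In vertebrates the protein called subunit s is a coupling factor and not a part of the core enzyme.

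The pRNAi egg sacs, which are other libraries of the same females, were tested for the stage difference on their own. In *gfp* pRNAi egg sacs 56 of 72 members rose and 4 fell between the stages (69.6% of all models called, 32.9% higher and 36.7% lower). In *Pt-hh* pRNAi egg sacs 46 of 73 rose and 5 fell (59% of all models called, 28.9% higher and 30.1% lower), and in *Pt-ptc* pRNAi egg sacs 56 of 72 rose and 3 fell (72.2% of all models called, 35% higher and 37.2% lower). The median log2 fold changes of the members were 0.90, 0.79 and 0.84, against medians of all models of -0.10, -0.04 and -0.05. With library totals alone the calls in *Pt-ptc* pRNAi egg sacs were 41 higher and 9 lower, against 28.8% and 43.7% of all models. The median of all models shifted to -0.34.

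In all 4 stage comparisons 42 of the 72 members tested throughout rose, 58.3% of members against 24.2% of the 12807 models tested in all 4. The subunit s-like model aug3.g27009 fell in all 4 (-1.19, -0.66, -1.44 and -1.03 in untreated, *gfp*, *Pt-hh* and *Pt-ptc* pRNAi egg sacs). No member was called in opposite directions. SDHB, SDHC, NDUFB2, COX11 and COX19, the last 2 being copper-handling factors of complex IV, were called in none of the 4. For opposite calls and calls in none, the share over all models is not given, so neither is read as particular to the chain. NDUFB8, COX16 and COA7 were called lower in some of the comparisons, as were the subunit 3-like model in *gfp* pRNAi egg sacs (-0.44), COX6C in *Pt-hh* pRNAi egg sacs (-0.69) and a further subunit s model (aug3.g7910) in *Pt-ptc* pRNAi egg sacs (-0.60). SDHA had an adjusted p of 0.0063 in *Pt-ptc* pRNAi egg sacs, with a log2 fold change of 0.34 ± 0.10, and did not pass in the other 3.

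Other genes of mitochondria and energy metabolism were read by their descriptions in the untreated egg sacs. Of 69 mitochondrial ribosomal protein models tested, 45 were higher and 4 lower at late stage 5 (median log2 fold change 0.84), and of 23 mitochondrial carriers and import proteins, 16 were higher and 2 lower (median 1.00). The tricarboxylic acid cycle, which feeds NADH and succinate to the chain, had 10 higher and 2 lower of 21 (median 1.05). Cytochrome c and other electron carriers had 3 higher and 1 lower of 5. The V-type ATPase, a proton pump of other membranes related to ATP synthase, had 17 higher and none lower of 19 (median 1.41). Glycolysis had 4 higher and 8 lower of 18 (median -0.61), and the cytosolic ribosomal proteins had 79 higher and 1 lower of 80 (median 3.40). Other gene groups thus rose by as much or more than the respiratory chain between these stages, and no test of the difference between groups was made.

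Vitellogenin, hemocyanin and troponin, markers of maternal or other tissue, were present at low levels (19 models, at most 12.9 RPKM for any of them in any library, none at 0 in every library). Their summed level was 4.92 to 9.04 RPKM in untreated late stage 5 libraries, against 4.04 to 12.2 RPKM at early stage 3. Of 11 such models tested, 2 were higher and 5 lower at late stage 5, and the part of these markers in the stage difference was not tested.

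Between late stage 5 and early stage 6 no member of the chain passed the test. In the untreated egg sacs of 5 females, 0 of 73 members were called by edgeR and 0 by DESeq2, and 5 had an unadjusted p under 0.05, where 2.25% of all models were called. The median log2 fold change of early stage 6 over late stage 5 was 0.00053, with single members between -0.50 and 0.44 and a median standard error of 0.13. The lowest adjusted p was that of COA7 (-0.50 ± 0.17, adjusted p = 0.13). Without *Pt-msx1* female 1 the median was 0.14 and still no member was called, in a fit whose share of all models called is not given.

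Few responses to pRNAi passed the test. In 9 of the 10 comparisons of pRNAi with untreated egg sacs no member was called by edgeR or by DESeq2, and in none of the 10 did a member change by more than 1 on the log2 scale. For *Pt-hh* pRNAi at early stage 3, 0 of 74 members were called (6 with an unadjusted p under 0.05) and 0.340% of all models. At late stage 5, 1 of 73 was called (9 with an unadjusted p under 0.05) and 3.55% of all models, with 2.34% called higher. For *Pt-ptc* pRNAi 0 of 72 were called at early stage 3 (8 with an unadjusted p under 0.05), against 0.134% of all models, and 0 of 72 at late stage 5 (11), against 1.01% of all models. For *Pt-msx1* pRNAi 0 of 73 were called at late stage 5 and at early stage 6 (3 with an unadjusted p under 0.05 at each). At both stages 0.00% of all models were called, so the lack of called members says nothing particular about the chain. The paper lists differentially expressed genes for *Pt-msx1* pRNAi at early stage 6, which the test used here did not recover. Without female 1, whose early stage 6 pRNAi library has the duplicate, again 0 members were called, and the share of all models is not given. For *gfp* pRNAi of females 1 to 3 no member of 72 was called at early stage 3 (12 with an unadjusted p under 0.05) or late stage 5 (2), against 1.26% and 0.137% of all models. For *gfp* pRNAi of females 4 and 5 none of 72 was called at late stage 5 (6) or early stage 6 (10), against 0.231% and 1.71% of all models. The early stage 6 comparison of *gfp* female 5 uses the other copy of the duplicate, and without that female 1 library against 1 leaves no test.

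**Figure D3:**
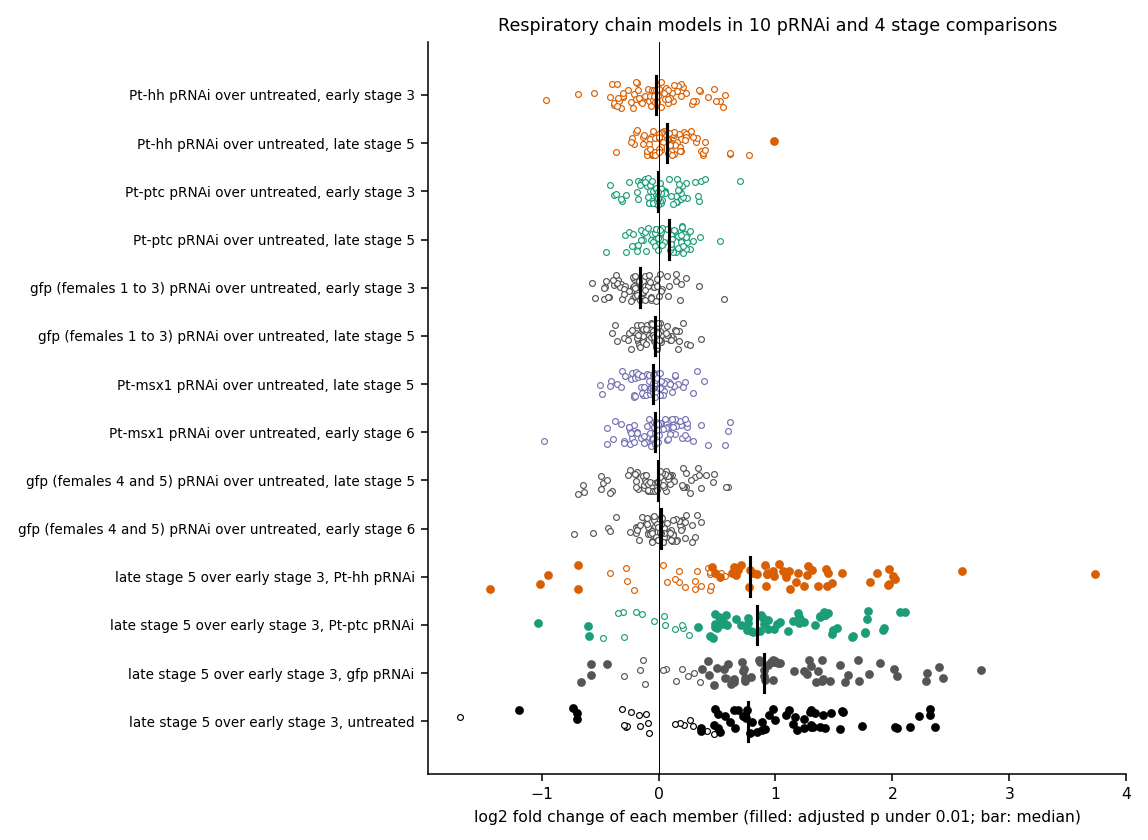
Log2 fold change of every respiratory chain model tested in 10 comparisons of pRNAi with untreated egg sacs and in 4 comparisons of late stage 5 with early stage 3 (points, filled where the adjusted p is under 0.01; the bar is the median). The medians of the pRNAi comparisons lie between -0.15 and 0.09 and those of the stage comparisons between 0.77 and 0.90.

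The medians of the members lay between -0.15 and 0.09 in the 10 pRNAi comparisons. The median standard error of a member was 0.12 to 0.22, and single responses as large as the median stage difference could have been missed. Without a call, log2 fold changes reached -0.98 for *Pt-msx1* pRNAi at early stage 6 and -0.96 for *Pt-hh* pRNAi at early stage 3. The *gfp* control at early stage 3 had the lowest median, with 58 of 72 members below 0 and 14 above. The beta subunit of ATP synthase (aug3.g7080) had 878 and 862 CPM in the late stage 5 *Pt-hh* pRNAi libraries of female 1 and 997 and 754 CPM in those of female 2, against 1129 CPM and 758 CPM in the untreated libraries of these females. Both pRNAi values of female 1 lay below her untreated library, and those of female 2 lay above and just below hers (log2 fold change -0.08 ± 0.16, adjusted p = 0.86). NDUFV1 (aug3.g11683) had a log2 fold change of 0.02 ± 0.13 and SDHA (aug3.g18664) of 0.00 ± 0.13 in the same comparison. In the *gfp* control of females 4 and 5 at early stage 6, NDUFB8 (aug3.g19426) had 13.2 and 30.1 CPM in pRNAi libraries, against 18.5 and 47 CPM in untreated ones of the same females. It was lower in both pairs (-0.56 ± 0.14) and just missed the threshold (adjusted p = 0.013), and 1 of these pRNAi libraries is the one with a duplicate under another label.

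The member called in late stage 5 *Pt-hh* pRNAi embryos was COX15, an enzyme of the heme A synthesis that complex IV needs (aug3.g9899, Scaffold1089:366-26377, plus strand, Ptep_1.0). It had 43.2 and 45.9 CPM in pRNAi libraries of female 1 and 66.3 and 76.7 CPM in those of female 2, against 32.3 CPM in the untreated library of female 1 and 25.2 CPM in that of female 2. All 4 pRNAi libraries were above both untreated ones, and the log2 fold change was 0.99 ± 0.20 (adjusted p = 0.0088). The untreated values of the *Pt-hh* females were at the low end for this stage, since the 3 untreated late stage 5 libraries of *gfp* females had 45.3, 63.3 and 67.9 CPM and the *Pt-ptc* females 34.6, 31.4 and 40.3 CPM. At early stage 3 COX15 in *Pt-hh* pRNAi embryos had a log2 fold change of -0.20 ± 0.18.

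**Figure D4:**
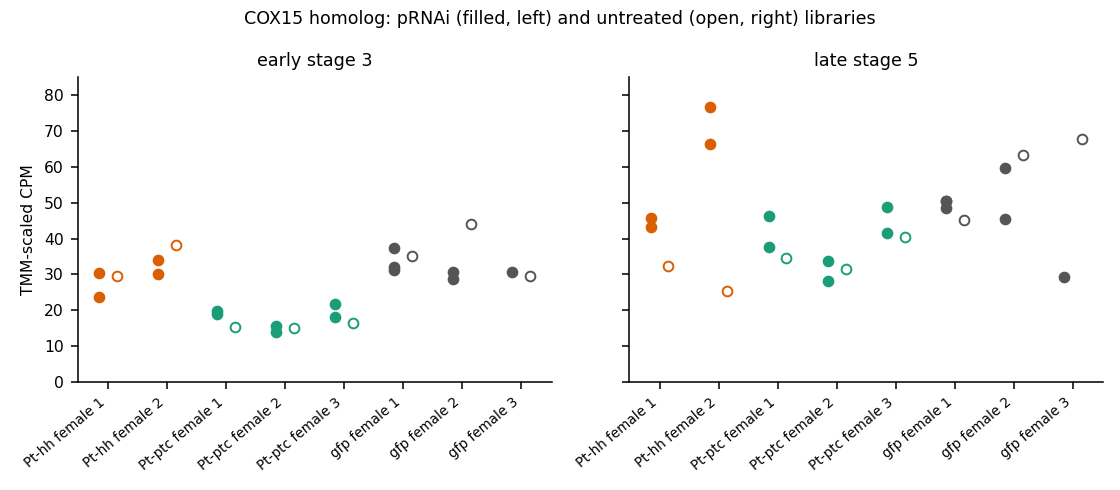
TMM-scaled CPM of the COX15 homolog in pRNAi libraries (filled, left) and untreated libraries (open, right) of each *Pt-hh*, *Pt-ptc* and *gfp* female, with early stage 3 in the left panel and late stage 5 in the right panel. At late stage 5 the 4 *Pt-hh* pRNAi libraries lie at 43.2 to 76.7 CPM, against 25.2 and 32.3 CPM in the untreated libraries of the same females, while the untreated libraries of the *gfp* females reach 67.9 CPM.

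The call on COX15 held with DESeq2 (0.96, adjusted p = 0.00040), with upper quartile scaling, without the filter on low counts and with the first egg sac after injection alone. It was lost without the female as a block (1.03, adjusted p = 0.15), with the libraries of a female summed (1.00, adjusted p = 0.063), with the second egg sac alone (1.09, adjusted p = 0.042) and without female 2 (0.49, adjusted p = 0.25), a fit with 1 untreated library. Against the *gfp* response at the same stage, the difference of the responses was 1.34 ± 0.30 (adjusted p = 0.012), past the threshold in DESeq2 (1.33, adjusted p = 0.00066) but not in edgeR. The difference between its responses at the 2 stages was 1.21 ± 0.30 (adjusted p = 0.15). No member was called by edgeR in the 4 tests of a *Pt-hh* or *Pt-ptc* response against the *gfp* response (4 with an unadjusted p under 0.05 for *Pt-hh* at early stage 3, 9 at late stage 5, 12 for *Pt-ptc* at early stage 3 and 9 at late stage 5), where 0.0276%, 2.50%, 0.00% and 0.365% of all models were called. In the test of whether the change between the stages differed between pRNAi and untreated egg sacs, edgeR called no member either (5 with an unadjusted p under 0.05 in *Pt-hh* and 2 in *Pt-ptc* females, and 0.128% and 0.0918% of all models called). DESeq2 called no member in these tests other than COX15 against the *gfp* response.

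With the stage means removed, the subunit 3-like model of complex IV (aug3.g20563) had the widest spread over libraries of the members with a mean count of at least 20, and it differed mainly between mothers. Its count was 1864 to 85605 (median 31862.5), or 0.02% to 1.04% of a library. Its 6 libraries ran from 230 to 474 CPM in *Pt-hh* female 1, from 398 to 1860 CPM in *Pt-hh* female 2 and from 176 to 671 CPM in *Pt-ptc* female 2. In the 50 libraries of the other 10 females it ran from 1570 to 9180 CPM. The medians of single females thus spanned 252 to 5770 CPM, a ratio of 22.9. The untreated libraries of these females, from egg sacs laid before any injection, had 325 CPM at late stage 5 and 230 CPM at early stage 3 in *Pt-hh* female 1, 638 CPM and 1860 CPM in *Pt-hh* female 2, and 247 CPM and 176 CPM in *Pt-ptc* female 2, so that 5 of the 6 lay below every library of the other 10 females.

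**Figure D5:**
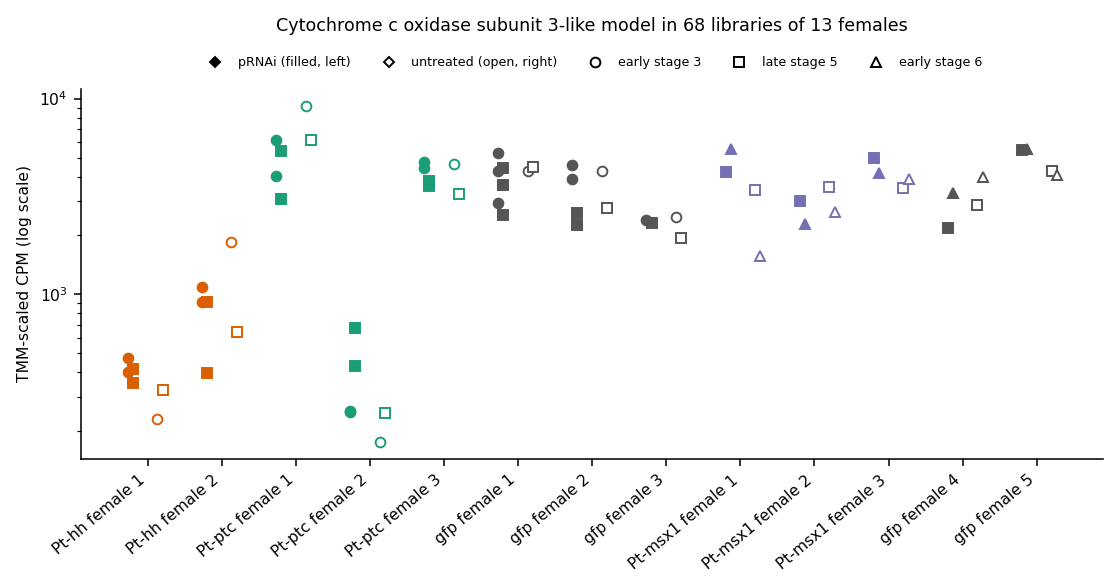
TMM-scaled CPM (log scale) of the cytochrome c oxidase subunit 3-like model in each of 68 libraries, by female, with pRNAi libraries filled and left and untreated libraries open and right, and the stage given by the shape. *Pt-hh* females 1 and 2 and *Pt-ptc* female 2 lie at 176 to 1860 CPM, and the 50 libraries of the other 10 females at 1570 to 9180 CPM, 1 pRNAi library being plotted under both *gfp* female 5 and *Pt-msx1* female 1.

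After removal of the stage means, 91.8% of the variance of this model's log2 CPM lay between females, as a description of these libraries. The library with a duplicate entered these shares under both of its labels. For the 72 members with a mean count of at least 20 the median share was 63% (24.9% to 91.8%), and for all 11078 such models 51.4%. Its standard deviation on the log2 scale was 1.46 over all libraries and 0.47 within females, and 1.02% of all models had a larger one over all libraries. NDUFA5-like (aug3.g20432), an accessory subunit of complex I, followed with 89.2% between females. Its medians were 9.57 and 11 CPM in *Pt-hh* females 1 and 2 and reached 70.2 CPM in *Pt-msx1* female 3. SDHC came next with 87.7%, its medians running from 23.3 CPM in *gfp* female 4 to 87.0 CPM in *gfp* female 3. The other members summed, without the subunit 3-like model, stayed between 3235 and 9472 CPM in all 68 libraries.

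The pRNAi values of the subunit 3-like model (aug3.g20563) lay on different sides of the untreated ones in the 2 *Pt-hh* females. At early stage 3, *Pt-hh* pRNAi libraries of female 1 had 474 and 400 CPM, against 230 CPM untreated, and those of female 2 had 915 and 1090 CPM, against 1860 CPM untreated. They were thus above the untreated library in female 1 and below it in female 2. With both females the model was not called, and with 1 untreated library per female the difference between them was not tested.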

How the data were processed

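RNA-seq counts of 68 libraries were analysed; 7 listed stage 7 samples were not analysed here. Reads had been trimmed, aligned to Ptep_1.0 with BLAT and reduced to unique alignments by the authors, who deposited whole-number counts per aug3 model from strand-specific htseq-count 0.5.4p5. The deposited RPKM, whose length and total are not named, served only for levels between genes. Tables of the authors' fold changes and FDRs were not used. Models that reached 1 CPM in 1 or more libraries of a comparison were tested in R 4.3.3 with edgeR 4.0.16 (TMM, quasi-likelihood F test, Benjamini-Hochberg over all models, adjusted p under 0.01), blocking on the female or, between stages, the egg sac. Standard errors came from the F statistic. Both libraries of a pair come from the same female, and the deviations of her pRNAi and untreated libraries correlated at 0.281 to 0.758. The lowest value was that of *Pt-msx1* female 1 at early stage 6, whose pRNAi library has the duplicate. In a comparison with 2 females both have the same value by construction. Totals of 5961730 to 16400327 counts set the precision. The 2 identical libraries were kept under both labels, in separate tests, and both entered the values taken over all 68 libraries. Alternatives were DESeq2 1.42.0, other scalings, no filter, no block, summed or single egg sacs, and each female left out. Members, gene lists and alternatives were chosen with earlier results of these data known. Named were core subunits of each complex, up to 5 members per direction with the smallest adjusted p that moved 1 way in every egg sac, the 3 highest and 3 lowest by RPKM, and every member of a count of 5 or fewer; NDUFA6, NDUFA5, SDHC, SDHD, SDHAF4, ATPAF1 and the member with the lowest adjusted p of a comparison were added after their values were seen. The fits were tested on simulated data.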

Additional observations from a re-analysis of the deposited data

Results flagged for a closer look

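Among untreated libraries of members named above, 10 of 68 groups held 1 library that lay far from the others by Dixon's criterion. For a single group, chance gives about 1 in 20. The groups are members measured in the same libraries, so they are not independent, and no excess over chance is read from this count. The second COX6A1 model (aug3.g21118) was highest in *Pt-hh* female 1 at late stage 5 (25.1 CPM, the next being 0.356) and at early stage 3 (2.59 CPM, the next being 0.188). At early stage 6 it was highest in *Pt-msx1* female 3 (2.77 CPM, the next being 0.475). Its copy aug3.g14813 held most counts of this gene, so these values are those of a weakly counted model.

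At late stage 5 the untreated library of *Pt-msx1* female 1 was the highest of 5 for 5 members. COX4 (aug3.g23675) was at 187 CPM there, the next being 78.4 CPM, COX5A (aug3.g26962) at 442 CPM with 246 CPM next, and the Rieske subunit (aug3.g26287) at 228 CPM with 136 CPM next. COX15 (aug3.g9899) was at 63.5 CPM with 41.8 CPM next, and the second alpha subunit model (aug3.g23458) at 30.5 CPM with 14.6 CPM next. Of the same female, COX15 was also highest at early stage 6 (79.9 CPM, the next being 45.3 CPM). COX4 in this female was at 151.5 CPM in the late stage 5 pRNAi library and at 83.9 CPM in the untreated early stage 6 library. In the early stage 6 pRNAi library that has a duplicate labelled *gfp* female 5 it was at 50.45 CPM, against 76.4 CPM in the untreated early stage 6 library of *gfp* female 5. Core subunit 1 of complex III (aug3.g5769) was highest at early stage 6 in *Pt-msx1* female 2 (200 CPM, the next being 171 CPM).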

How the results depend on the processing

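In the 4 comparisons of late stage 5 with early stage 3, the count of members called in both directions stayed within 1.5 times under every alternative run, while the few lower calls moved by more. In untreated egg sacs 48 of 72 members were higher and 2 lower without the *Pt-hh* females (an alternative chosen after seeing the data), against 30.2% and 32% of all models, and 43 were higher and 2 lower without the replicate block, against 29.3% and 32.3%. With egg sacs of a female summed, also chosen after seeing the data, 44, 33 and 47 members rose in *gfp*, *Pt-hh* and *Pt-ptc* pRNAi egg sacs, against 25.0%, 20.7% and 29.7% of all models, and 1, 2 and 1 fell. Library totals alone lowered the median of all models to -0.22 in untreated egg sacs and left 44 members higher and 7 lower, against 28.8% and 36.8% of all models. Lower calls were then 7 in *gfp* and 9 in *Pt-ptc* pRNAi egg sacs, against 4 and 3 with TMM. Of all models 43.2% and 43.7% were then lower, against 36.7% and 37.2% with TMM.

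The pRNAi counts of 0 or 1 were less settled. With 1 *Pt-hh* female left out, a single untreated library remains at each stage, which is assumed to vary like the pRNAi libraries. *Pt-hh* at late stage 5 gave 0 without the replicate block, 0 with summed egg sacs, 0 with the second egg sac alone and 0 to 1 with a female left out. For *Pt-hh* at early stage 3 the log2 fold change of COX3-like went in opposite directions, -0.93 without female 1 and 0.94 without female 2. That of COX6C was 0.93 without female 1. The stage by treatment term of *Pt-hh* females gave 2 without female 1 (COX6C -1.49 and COX15 1.76) and 0 without female 2. The *Pt-hh* response against *gfp* at late stage 5 gave 1 (COX15) with DESeq2 and without the low-count filter, and 0 to 1 with a female left out. Without that filter 1 member was called in each of *gfp* at late stage 5 (COX6B1, -0.41, adjusted p = 0.0080), early stage 6 over late stage 5 (COA7, -0.50, adjusted p = 0.0063) and *Pt-ptc* against *gfp* at late stage 5 (COX6B1, 0.59, adjusted p = 0.0077). The share of all models called in these fits is not given, and the causes were not tested. Of 53 results on named members, 48 were called. Removing the replicate block cost 10 of them their call, upper quartile scaling 4 and DESeq2 none, and of the 5 not called SDHB passed with DESeq2. No direction changed under these 3 settings. Leaving out a female of *gfp* females 4 and 5 leaves no residual degrees of freedom and was not run. Models under a few CPM, such as aug3.g21118 and aug3.g4145, are limited by depth.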
